A study of Mus musculus with 6 samples.

Results

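Immediate early genes are transcribed within minutes of a stimulus from factors already present in the cell, without new protein synthesis. Kinases of the ERK, JNK and p38 families and cAMP signals act through SRF, its ternary complex partners and CREB at their promoters, and the transcripts are short-lived. In the lung they are known to respond to stretch, injury, inflammation and tissue handling. The 10 genes described here are the AP-1 subunits Fos, Fosb, Jun and Junb, the zinc finger factor Egr1, the orphan nuclear receptor Nr4a1, the early response genes Ier2 and Ier3, the MAP kinase phosphatase Dusp1 and the mRNA-destabilising protein Zfp36. All probe sets whose platform annotation names only 1 of these symbols were taken, which gave 11 of 45101 probe sets and 10 of 18193 named genes. Jun was read by 2 probe sets and each other gene by 1.

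RNA was measured in lungs of 6 wild type mice, of which 3 had eaten a high fat diet and 3 a control diet, and each lung was hybridised to its own array. The labels give neither strain, sex, age, length of the diet nor the time of day and manner of collection. Signals are linear MAS5 intensities, which the authors scaled to a trimmed mean of 500 on every array, so each value is relative to the rest of its array. The number of arrays limits the precision, and signals of different probe sets are not compared with each other. As a check of the tissue, Sftpc, the surfactant protein of alveolar type II cells, ranged from 45581 to 57324 in high fat mice and from 32996 to 69407 in control mice. Each group is described by 3 separate mice. Limma's p-values test the diet difference against the spread between mice of the same diet, which limma moderates with that of all tested probe sets.

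Promoter sequences were available from RefSeq (GRCm38.p6) for 8 of the 10 genes, namely Fos, Fosb, Jun, Junb, Nr4a1, Ier3, Dusp1 and Zfp36. Of these, 4 are shown as the 250 bases before the annotated start, 5′ to 3′ along the gene. Fos had the widest spread between mice, Jun the narrowest, Dusp1 the smallest p for diet, and Nr4a1 peaked in a different high fat mouse from most of the others. Capitals mark the core of the cAMP response element, spelled TGACG and searched on both strands, so that a match on the other strand appears as its reverse complement. They also mark the TATA box, spelled TATAAA and searched on both strands.
Fos, chr12:85473640-85473889, plus strand: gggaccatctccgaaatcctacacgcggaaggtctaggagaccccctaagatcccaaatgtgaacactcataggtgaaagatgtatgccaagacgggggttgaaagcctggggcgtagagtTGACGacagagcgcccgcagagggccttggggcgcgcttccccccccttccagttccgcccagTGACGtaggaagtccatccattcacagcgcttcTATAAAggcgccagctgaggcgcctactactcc
Jun, chr4:95052223-95052472, minus strand: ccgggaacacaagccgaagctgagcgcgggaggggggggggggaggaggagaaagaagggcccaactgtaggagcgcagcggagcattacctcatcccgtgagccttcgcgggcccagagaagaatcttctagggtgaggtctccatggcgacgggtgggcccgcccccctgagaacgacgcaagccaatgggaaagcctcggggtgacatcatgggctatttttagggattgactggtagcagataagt
Dusp1, chr17:26508473-26508722, minus strand: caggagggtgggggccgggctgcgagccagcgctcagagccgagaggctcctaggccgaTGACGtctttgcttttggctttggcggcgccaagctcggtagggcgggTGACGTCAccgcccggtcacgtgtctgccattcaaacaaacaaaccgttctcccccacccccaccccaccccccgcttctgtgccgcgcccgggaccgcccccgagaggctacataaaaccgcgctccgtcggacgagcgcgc
Nr4a1, chr15:101266596-101266845, plus strand: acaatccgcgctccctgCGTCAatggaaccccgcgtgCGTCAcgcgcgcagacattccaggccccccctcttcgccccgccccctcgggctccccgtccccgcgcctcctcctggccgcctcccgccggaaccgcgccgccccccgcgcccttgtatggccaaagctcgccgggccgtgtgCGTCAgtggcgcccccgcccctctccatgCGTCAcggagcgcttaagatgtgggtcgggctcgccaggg
The window of Fos held TGACG at 2 places and TATAAA at 33 to 28 bases before the start. That of Dusp1 held TGACG at 3 places, of which 2 overlap on opposite strands and together spell the full palindrome, TGACGTCA. That of Nr4a1 held 4, all on the other strand, and that of Jun matched neither motif in these letters. TGACG on either strand was present in 5 of the 8 windows (Fos, Fosb, Junb, Nr4a1 and Dusp1), against 17.8 percent of 32841 promoter windows of the same length. The full palindrome was in 1 of 8 windows against 1.55 percent, and the exact letters TATAAA in 1 of 8 against 12.4 percent. Other spellings of the TATA box were not counted. The AP-1 motif, searched only as TGANTCA, was in 0 of 8 against 6.75 percent, and other spellings of it were not counted. A CArG box, the SRF motif, was found in 1 window, that of Zfp36, against 1.47 percent of all windows. These matches describe the letters of the 250 bases only, and sites further from the start were not searched.

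None of the 9 tested genes of the set was called as different between the diets by limma. Of the 11 probe sets, 10 passed the filter on dim signals and covered 9 genes, and Fosb was too dim to be tested. Of the 10 tested probe sets, 0 were called at an adjusted p under 0.05, against a background of 12.9 percent of all 27022 tested probe sets, and 0 had an unadjusted p under 0.05, against 31.1 percent. By gene, 0 of 9 were called against 6.75 percent of 12689 genes, and 0 had an unadjusted p under 0.05 against 25.5 percent. Signals of high fat and control mice overlapped for every tested member, whereas the groups did not overlap for 31.8 percent of all genes. The median log2 difference, high fat minus control, was -0.03 over the 9 members and 0.06 over all genes, and the median absolute difference was 0.21 over the members and 0.25 over all genes. A p that misses the threshold does not show equal levels, and the 95% intervals below give the differences that these arrays still allow.

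**Figure D1:**
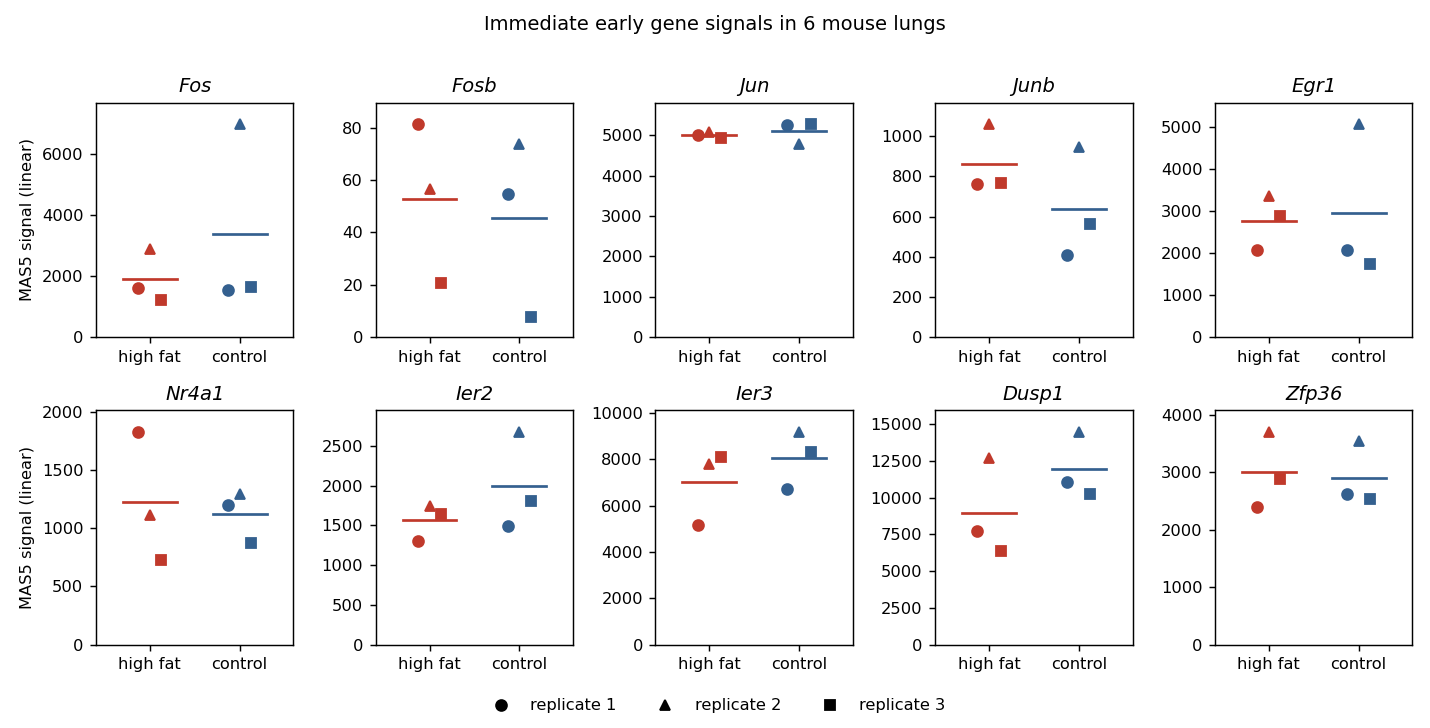
MAS5 signal (linear, from 0) of each gene in each lung, with high fat mice (red) left of control mice (blue), a marker shape for each replicate number and a bar at the group mean. The groups overlap for each gene, and control replicate 2 (blue triangle) is the highest control mouse for all genes except Jun. Each panel has its own scale.

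Fos, which pairs with Jun proteins to form AP-1, varied more between mice than any other tested member. Its signal (1423100_at) was 1606, 2898 and 1206 in high fat replicates 1, 2 and 3, against 1554, 6985 and 1638 in control replicates 1, 2 and 3. A single control mouse thus stood far above the others, and the remaining control values lay inside the range of the high fat mice. The highest control signal was 4.50 times the lowest, and the highest high fat signal 2.40 times the lowest. The fitted ratio of high fat to control was 0.681 (95% interval 0.288 to 1.61, limma adjusted p = 0.529 over probe sets). Without control replicate 2 the log2 difference was 0.16, in place of -0.55 with all mice, so its sign rested on that lung.

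Fosb, a Fos relative that is nearly silent in resting tissue, had signals of 81.5, 56.5 and 20.7 in high fat mice, against 54.7, 74.0 and 7.68 in control mice (1422134_at). Its mean log2 signal lay at percentile 30.0 of all probe sets, below the filter at the 40th. Both groups covered the same low range. Fitted without the filter, the log2 difference was 0.54 with a 95% interval from -1.55 to 2.63 (limma adjusted p = 0.795). No detection calls were used, so whether any of these signals exceeded background is not known here.

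Jun, the main partner of Fos in AP-1, was the steadiest member. Its brighter probe set (1417409_at) gave 5015, 5076 and 4934 in high fat mice, against 5262, 4781 and 5276 in control mice. All 6 lungs lay within a narrow band, and control replicate 2, the highest control mouse for Fos, was the lowest of all for Jun. The ratio of high fat to control was 0.982 (95% interval 0.835 to 1.15, limma adjusted p = 0.887). The dimmer probe set (1448694_at) gave 3218, 3366 and 3528 in high fat mice, against 3581, 3110 and 3832 in control mice. It too was lowest in control replicate 2, and its ratio was 0.964 (95% interval 0.802 to 1.16, limma adjusted p = 0.792).

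Junb, an AP-1 subunit that often opposes Jun, had the largest positive log2 difference of the tested members. Its signal (1415899_at) was 763, 1061 and 770 in high fat mice, against 410.5, 945 and 563 in control mice. Control replicate 2 lay inside the high fat range and the other control mice lay below it. The ratio was 1.42 (95% interval 0.908 to 2.21, limma adjusted p = 0.261). Fits that dropped a single mouse put its log2 difference between 0.23 and 0.83, and the smallest adjusted p over genes was 0.109, without control replicate 2.

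Egr1, a zinc finger factor induced through SRF, had signals (1417065_at) of 2080, 3365 and 2871 in high fat mice, against 2074, 5066 and 1740 in control mice. As for Fos, control replicate 2 exceeded every other lung. The ratio was 1.03, with a 95% interval from 0.584 to 1.82 (limma adjusted p = 0.947). Without control replicate 2 the log2 difference was 0.52, and the adjusted p over genes was 0.227.

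Nr4a1, the orphan receptor also known as Nur77, showed another pattern among the high fat mice. Its signal (1416505_at) was 1832, 1117 and 729 in high fat mice, against 1202, 1297 and 871 in control mice. High fat replicate 1 was the highest of all lungs and high fat replicate 3 the lowest. The ratio was 1.03 (95% interval 0.641 to 1.66, limma adjusted p = 0.937). High fat replicate 1 also had the highest summed cardiac muscle marker level of all lungs (99.4 in log2 units over 7 markers). Its summed skeletal muscle level was 62.9 over 6 tested markers, above the 40.3 and 39.1 of high fat replicates 2 and 3. Control mice had another order. Their skeletal muscle sums were 73.9, 36.4 and 50.3 and their cardiac muscle sums 80.4, 78.2 and 86.9 in replicates 1, 2 and 3. Nr4a1 was highest of the control mice in replicate 2, which had the lowest of both sums. The part of muscle RNA in the Nr4a1 signal was not tested. Without high fat replicate 1 the log2 difference of Nr4a1 was -0.30, against 0.04 with all mice.

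Ier2, a nuclear protein induced by growth factors, gave signals (1416442_at) of 1310, 1744 and 1647 in high fat mice, against 1491, 2682 and 1808 in control mice. Control replicate 2 was again the highest lung, and the ratio was 0.805 (95% interval 0.576 to 1.12, limma adjusted p = 0.348). Ier3, a survival factor of stressed cells, gave signals (1419647_a_at) of 5181, 7807 and 8112 in high fat mice, against 6712, 9190 and 8293 in control mice. High fat replicate 1 was the lowest lung for both genes. The ratio for Ier3 was 0.862 (95% interval 0.636 to 1.17, limma adjusted p = 0.488).

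Dusp1, which switches off p38, JNK and ERK by dephosphorylation and is also induced by glucocorticoids, had the smallest p of the members. Its signal (1448830_at) was 7738, 12729 and 6371 in high fat mice, against 11086, 14492 and 10226 in control mice. Of the high fat mice, replicates 1 and 3 lay below every control mouse and replicate 2 lay inside the control range. The ratio was 0.726 (95% interval 0.492 to 1.07, limma unadjusted p = 0.0944, adjusted p = 0.237). Without high fat replicate 2 the log2 difference was -0.75, in place of -0.46, with an adjusted p of 0.0710 over genes, which still missed the threshold.

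Zfp36, also called tristetraprolin, binds AU-rich elements and speeds the decay of cytokine and immediate early mRNAs. Its signal (1452519_a_at) was 2397, 3706 and 2890 in high fat mice, against 2630, 3537 and 2539 in control mice. The ranges of the diets almost coincided, with replicate 2 highest in each. The ratio was 1.03 (95% interval 0.767 to 1.38, limma adjusted p = 0.907).

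**Figure D2:**
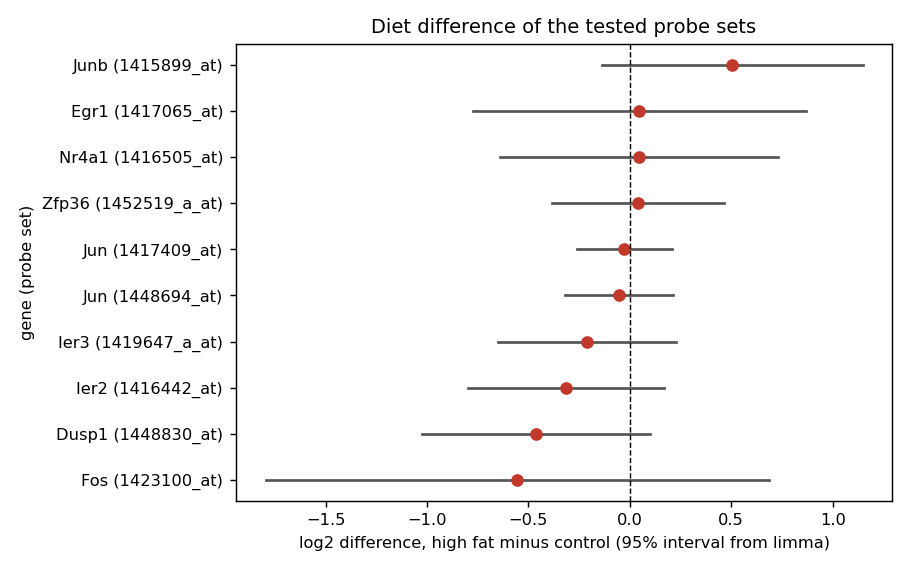
Log2 difference in signal, high fat minus control, for the 10 tested probe sets, with 95% intervals from limma (3 mice per diet). Every interval includes 0, and the interval of Fos is the widest while those of both Jun probe sets are the narrowest.

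The members differed more between mice of the same diet than most transcripts of similar brightness. The SD of log2 signals between mice within a diet was 0.98 for Fos, against a median of 0.16 for the 1000 probe sets nearest to it in mean signal, of which 99.4 percent had a smaller SD. The same percentile was 98.7 for Egr1, 97.4 for Nr4a1, 95.5 for Junb, 94.3 for Dusp1 and 92.3 for Ier2. Ier3 and Zfp36 lay at 87.8 and 86.8. Jun, at 3.8 for its brighter probe set and 28.7 for the other, was the exception. So 6 of 9 tested genes exceeded 90 percent of their neighbours in spread, and the median SD was 0.41 for the members and 0.21 for all tested genes. For Fos, Egr1 and Ier2 the largest deviation from the gene's mean was in control replicate 2 (1.70, 0.92 and 0.63 in log2). It was in other lungs for Junb (-0.80, control replicate 1), Nr4a1 (0.70, high fat replicate 1) and Dusp1 (-0.66, high fat replicate 3). The spread without control replicate 2 was not tested, and genes on the same arrays are not independent.

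**Figure D3:**
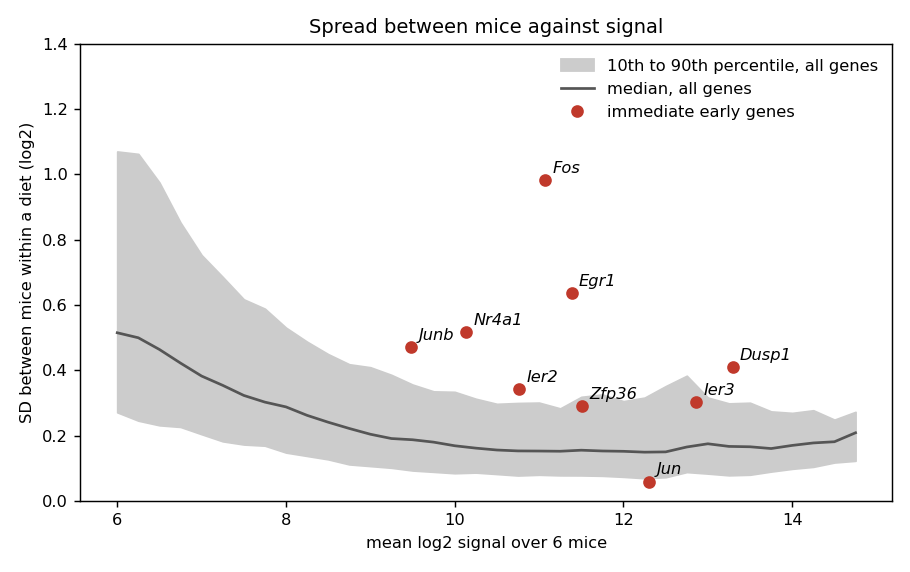
SD of log2 signal between mice within a diet (4 residual degrees of freedom) against mean log2 signal over 6 mice, for the 9 tested immediate early genes (red) and all tested genes (grey band from the 10th to the 90th percentile, line at the median). Fos and Egr1 stand far above the band and Jun lies near its lower edge.

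The differences between mice were shared by many members. Among high fat mice, 7 of 9 tested genes were highest in replicate 2, and the exceptions were Nr4a1 (replicate 1) and Ier3 (replicate 3). Among control mice, 8 of 9 were highest in replicate 2, with Jun the exception. Of all tested genes, 30.9 percent were highest in replicate 2 among high fat mice and 36.6 percent among control mice. Median deviations of the members from their own means were -0.36, 0.33 and -0.03 on the log2 scale in high fat mice and -0.15, 0.40 and -0.20 in control mice. The highest high fat and control lungs carry the same replicate number, but nothing in the labels says that a number marks a shared litter, day or batch. Members read from 1 array share its RNA and scaling, so these counts describe 6 lungs and are not independent observations.

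**Figure D4:**
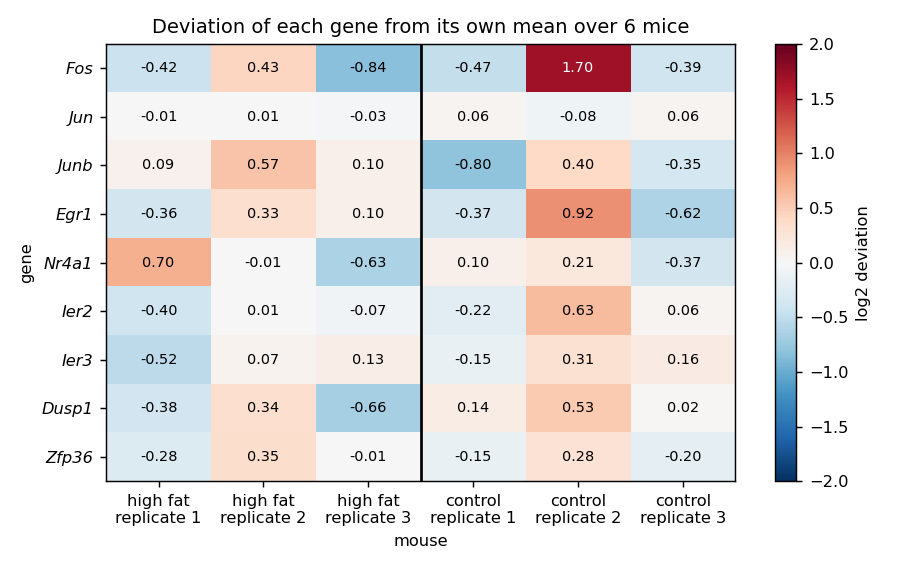
Log2 deviation of each tested gene from its own mean over the 6 mice, with high fat mice left of the line and control mice right of it. Replicate 2 of each diet is above the mean for 8 of 9 genes; control replicate 2 reaches 1.70 for Fos and 0.92 for Egr1.

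Of 17 other immediate early transcription factors listed, 14 were tested, 1 rose, 0 fell and 13 were not called, with a median log2 difference of 0.27 beside 0.06 for all genes. Of all genes tested, 4.56 percent rose and 2.2 percent fell. Among high fat mice, 8 of the 14 were highest in replicate 2, the mouse in which most members were highest. Among control mice, 12 of the 14 were highest in replicate 1 and 0 in replicate 2, a different order from that of the members. Of all genes, 30.9 percent were highest in high fat replicate 2, 31.6 percent in control replicate 1 and 36.6 percent in control replicate 2. Klf2, a flow-responsive factor of endothelium, gave 7075, 7698 and 6662 in high fat mice, against 8787, 3824 and 5544 in control mice. Its lowest lung was thus control replicate 2, the highest lung for Fos. Control replicate 1 was also the lung with the highest summed skeletal muscle marker level (73.9 in log2 units over 6 tested markers, against 36.4 and 50.3 in control replicates 2 and 3). The part of muscle RNA in these signals was not tested.

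The factor that rose was Jund, the AP-1 subunit that is present in most resting cells. Its signal was 4750, 5503 and 6704 in high fat mice, against 3410, 3029 and 2314 in control mice. The groups did not overlap, and the log2 difference was 0.96 ± 0.18 (SE, limma adjusted p = 0.0186 over genes). It was called in 3 of 6 fits with 1 mouse left out, and the highest adjusted p was 0.0685, without control replicate 3. Of the tested Fos and Jun genes, Jund was therefore called while Fos, Fosl2, Jun and Junb were not, and differences between these genes were not tested.

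The repressors and partners that act with these factors included further called genes. Of 14 listed partners of AP-1, EGR and NR4A proteins, 13 were tested, 2 rose and 0 fell (median log2 difference 0.23). Nab2, a corepressor of Egr1, gave 964, 1091 and 819 in high fat mice, against 629, 528 and 513 in control mice (log2 difference 0.78, limma adjusted p = 0.0249). Jdp2, a repressor that dimerises with Jun proteins, gave 951, 1171 and 1029 in high fat mice, against 710, 613 and 700 in control mice (log2 difference 0.64, limma adjusted p = 0.0309). Neither gene overlapped between the diets. Nab2 was called in 2 and Jdp2 in 1 of the 6 fits with 1 mouse left out, with adjusted p up to 0.0966 without control replicate 3 and 0.109 without control replicate 2. Over all 17 alternative fits, Nab2 was called in 11 and never changed sign, while Jdp2 was called in 8 and changed sign in 1. The share called in this list, 15.4 percent, rests on these 2 genes.

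Called shares among signalling genes upstream of the members and among feedback inhibitors were near the 6.75 percent of all genes or at 0. Of 21 listed kinases and SRF, ternary complex and CREB factors, 16 were tested, limma called 0, and 2 had an unadjusted p under 0.05 (median log2 difference -0.02). The smallest p was that of Mapk14, the p38 alpha kinase, whose signal was 2119, 1889 and 2009 in high fat mice, against 2746, 2407 and 2663 in control mice (log2 difference -0.38, limma adjusted p = 0.077). Its groups did not overlap, and all 4 of its other tested probe sets were lower and called over probe sets (-1.38 to -0.71). Of 13 other MAP kinase phosphatases and feedback inhibitors, 1 rose (7.69 percent), 0 fell and 12 were not called. Spry2, an inhibitor of receptor tyrosine kinase signalling, gave 1396, 1813 and 1530 in high fat mice, against 949, 1174 and 1081 in control mice (limma adjusted p = 0.0498). It lay just inside the threshold and was called in 0 of 6 fits with 1 mouse left out.

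Of 20 other immediate early regulators, 19 were tested and limma called 0, while 5 had an unadjusted p under 0.05 (median log2 difference 0.26). Plk2, a stress-responsive polo-like kinase, had the smallest p, with signals of 1306, 1249 and 1933 in high fat mice, against 2651, 2342 and 1896 in control mice (limma adjusted p = 0.0847). High fat replicate 3 and control replicate 3 met, so the groups overlapped.

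A list of 14 genes joined the Zfp36 relatives Zfp36l1 and Zfp36l2 with transcripts that carry AU-rich elements, the class that Zfp36 binds. Of these, 10 were tested, 2 rose, 2 fell and 6 were not called (median log2 difference 0.66). The share called was 40 percent, against 6.75 percent of all genes. An unadjusted limma p under 0.05 was found for 9 of the 10, against 25.5 percent of all genes. The list was chosen with earlier results of these data known. Cxcl1, a neutrophil-attracting chemokine, gave 279, 1205 and 1368 in high fat mice, against 160, 172 and 166 in control mice (limma adjusted p = 0.0396). Every high fat mouse was above every control mouse, but it was called in 1 of 6 fits with 1 mouse left out, and without high fat replicate 2 the adjusted p was 0.169. Cxcl2, a related chemokine, gave 98.1, 662 and 320 in high fat mice, against 30.8, 45.2 and 50.7 in control mice (limma adjusted p = 0.0361). It too was called in 1 of 6 such fits, with adjusted p up to 0.106 without control replicate 2. The control signals of Cxcl2 are dim, so the size of its difference is uncertain.

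Il1b, the inflammatory cytokine, fell, with signals of 215, 415 and 441 in high fat mice, against 842, 1125 and 1290 in control mice (limma adjusted p = 0.0151). Vegfa, the vascular growth factor, also fell, with 4191, 4356 and 4258 in high fat mice, against 6032, 6124 and 6380 in control mice (limma adjusted p = 0.0201). The groups of both genes lay apart. Il1b was called in 4 and Vegfa in 1 of 6 fits with 1 mouse left out, with adjusted p up to 0.0671 without control replicate 2 and 0.0948 without control replicate 3. Neutrophil markers, which come from cells that make Il1b, moved in the same direction: of 5 tested, 2 fell and 0 rose, and their summed log2 level was 40.2 to 44.1 in high fat mice and 46.5 to 53.4 in control mice. In whole lung, fewer cells of a type and less RNA per cell cannot be told apart, and the part of neutrophils in the Il1b signal was not tested.

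Of 10 glucocorticoid-induced genes, a list that leaves out Dusp1, 1 rose, 0 fell and 9 were not called (median log2 difference 0.42). Mt1, a metal-binding metallothionein, gave 2847, 1822 and 1793 in high fat mice, against 1088, 795 and 772 in control mice (limma adjusted p = 0.0137). The groups did not overlap, and it was called in 4 of 6 fits with 1 mouse left out, with an adjusted p of up to 0.0631 without control replicate 2. Among high fat mice, 8 of the 10 were highest in replicate 2 and 9 were lowest in replicate 3, against 30.9 and 30.1 percent of all genes. Dusp1 was also highest and lowest in these mice. Among control mice, where Dusp1 was highest in replicate 2, 1 of the 10 was highest there, 4 in replicate 1 and 5 in replicate 3. Of all genes, 36.6, 31.6 and 31.8 percent were highest in control replicates 2, 1 and 3.

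**Figure D5:**
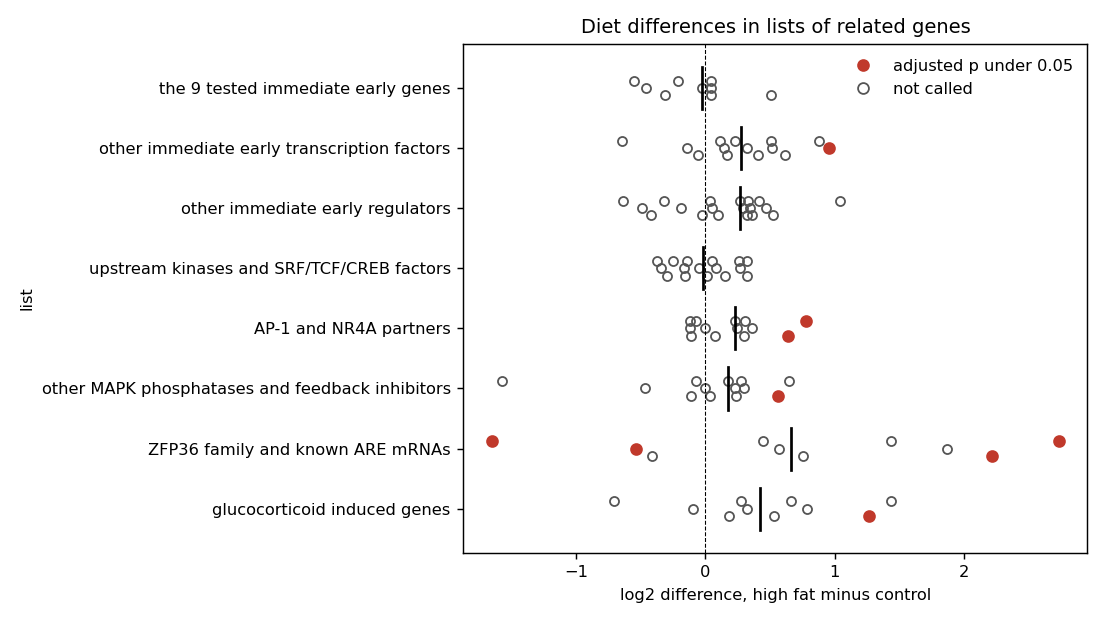
Log2 difference, high fat minus control, of the 9 tested immediate early genes (top) and of the tested genes of 7 lists of related genes, each point a gene, filled where the limma adjusted p is under 0.05, with a bar at the list median. None of the 9 is filled, and the list of Zfp36 relatives and AU-rich transcripts has filled points on both sides of 0.

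Genes outside the set with the most similar pattern over the 6 mice were ranked by the root mean square difference between mean-centred log2 profiles. The closest to the average of the 9 members were Asb13 (0.07), Yy1 (0.09), Rassf6 (0.09), Hnrnpf (0.10) and Zfp33b (0.10). Yy1, a zinc finger transcription factor, gave 2675, 3741 and 2723 in high fat mice, against 2769, 3945 and 2876 in control mice. Since these genes were chosen for their likeness to the members' average, their order of mice and their small diet differences follow from the choice.

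Some properties of the arrays differed with diet beside these results. Adipocyte markers were higher in high fat lungs (5 of 5 tested rose, summed log2 level 54.7 to 57.6 in high fat and 39.9 to 46.9 in control mice). Summed levels of cardiac muscle markers were 82.6 to 99.4 in high fat and 78.2 to 86.9 in control mice, and 1 of 7 rose. Those of smooth muscle markers were 70.8 to 77.6 in high fat and 66.1 to 69.2 in control mice, and 3 of 6 rose. Endothelial, lymphocyte and alveolar macrophage lists had 2 of 6, 2 of 6 and 1 of 5 members that fell. For b-Actin, the signal of the 3' control divided by that of the 5' control was 1.503 to 1.546 in high fat and 1.194 to 1.437 in control mice. For Gapdh the same ratio was 0.854 to 0.957 in high fat and 0.743 to 0.795 in control mice. The median signal of an array was 113 to 129 in high fat and 143 to 150 in control mice, at the same trimmed mean of 500. The part of any of these in the members' signals was not tested. The skeletal muscle list had 0 of 6 called, also 0 at an unadjusted p under 0.05, and the 7 epithelial markers had 0 called and 1 at an unadjusted p under 0.05.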

How the data were processed

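The authors deposited 1 linear intensity value (signal) per probe set and array, made with MAS5 per the submitters' processing notes. The sources used here give neither its version and settings nor a genome build. The platform annotation gave 34958 of 45101 probe sets a single symbol and 932 several; 64 controls were left out of the test. A RefSeq table (GRCm38.p6), matched on Entrez identifiers, held 34754 of them and changed 0 symbols.

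Signals were floored at 1 and analysed as log2 values without renormalization. The fit used probe sets at or above the 40th percentile of mean log2 signal (a signal of 70.3), which left 27022. Differences, 95% intervals and two-sided p-values are limma's (3.58.1, R 4.3.3; lmFit, eBayes with intensity trend, 1 term for diet), adjusted by Benjamini-Hochberg over 27022 probe sets or over 12689 genes, each represented by its brightest tested probe set. A call is an adjusted p under 0.05. The fit was run on simulated data with independent errors for each probe set, unlike these arrays, where probe sets share RNA and scaling.

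The members and lists were chosen with earlier results of these data known. From each list, up to 4 called genes with the smallest p are named, and otherwise the gene with the smallest p. Klf2 is named in addition and was chosen after its values were seen. The 5 genes most alike in pattern were taken by root mean square difference. Alternatives were other scalings, filters, variance models and an offset of 32, the replicate number as a block, gene means over probe sets and leaving out each mouse. Leaving out both replicates numbered 1, which had the highest skeletal muscle levels of their diets, was chosen after seeing the data.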

Additional observations from a re-analysis of the deposited data

How the results depend on the processing

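Limma called 0 members, by probe set or gene, under each alternative, including the fit without both replicates numbered 1. With 3 mice per diet and wide spread between them, the intervals allow sizeable differences of most members, among them Fos, Junb, Egr1, Nr4a1, Ier2 and Dusp1. Centring arrays on their median shifted all genes to a median log2 difference of 0.33, against 0.06, and the members to 0.25. Jun was then at 0.25 and Ier3 at 0.061, each reversed, and Egr1 (-0.0067) and Zfp36 (-0.014) reversed with quantile normalization. With 1 mouse left out the log2 difference ran from -0.93 to 0.16 for Fos, -0.25 to 0.52 for Egr1, -0.30 to 0.37 for Nr4a1 and -0.12 to 0.19 for Zfp36, and without both replicates numbered 1 that of Nr4a1 was -0.24. The cause was not tested.

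Over all probe sets 3486 were called, 724 to 3298 with 1 mouse left out, 1343 without both replicates numbered 1 and 5448 with median centring. Over all genes 857 were called, 170 to 570 with 1 mouse left out, 343 without both replicates numbered 1, 3208 with median centring, 136 without an intensity trend and 515 with gene means over probe sets. Of called genes 67.4 percent were higher in high fat mice, 95.4 percent with median centring. With the replicate block 0 members and 737 genes were called. With it, limma's unadjusted p was 0.0095 for Dusp1, 0.0219 for Junb and 0.0484 for Fos, and above 0.05 for the other tested members. The adjusted p over genes of these 3 was 0.0828, 0.125 and 0.184. Outside the block, limma's unadjusted p was under 0.05 for Dusp1 with quantile normalization (0.0151) and for Junb with median centring (0.0222). With 1 mouse left out it was under 0.05 for Dusp1 without high fat replicate 2 (0.0037) and Ier2 without control replicate 1 (0.0394). It was also under 0.05 for Junb (0.00598) and Egr1 (0.0419) without control replicate 2. None of these was called. Deviations of same-numbered mice correlated at 0.167, 0.108 and -0.0413 over probe sets, and those of differently numbered mice at -0.213 to 0.127. These correlations do not decide whether numbers mark pairs. The labels state no pairing, so the main fit did not use the numbers.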
